A study of Mus musculus with 12 samples.

Results

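The 10 adhesion genes of the immunoglobulin type described here were followed across 4 sorted stromal populations of mouse bone: Alcam, Vcam1, Icam1, Icam2, Ncam1, Bcam, Cadm1, Jam2, Jam3 and F11r. They were found by matching the Ensembl identifiers of the count files to mouse gene symbols, and all 10 were present among 49585 genes. All 10 also passed the filter on low counts, as did 18648 genes in all. Bulk RNA-seq libraries had been made to compare Itga8+ mesenchymal stromal cells (MSCs), which carry the integrin alpha8 subunit, with other niche cells that may maintain haematopoietic stem cells.

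Each population had 3 libraries of 2000 sorted cells from wild-type male C57BL/6 mice aged 8 to 10 weeks, at steady state and without treatment. CD45+, Ter119+ and CD31+ cells were gated out of all 4 populations. Itga8+ MSCs were Itga8+Alcam+Sca-1- cells, Itga8- Alcam+ BLCs were Itga8-Alcam+Sca-1- bone-lining cells that the labels call osteoblasts, and Sca-1+ MSCs were Alcam-Sca-1+ cells. These 3 were taken from collagenase-digested fragments of the femur, tibia and iliac bone after the marrow had been flushed. CD51+CD140a+ MSCs were taken from the marrow flushed out of femur and tibia, with another enzyme, so that in every comparison with them the population, the bones and the isolation cannot be told apart. Nothing in the sources used here ties a library to an animal, so p-values measure the spread between libraries, which may be technical.

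Molecules of this type carry extracellular immunoglobulin domains and hold cells to each other or to integrins. Vcam1, Icam1 and Icam2 are ligands of leukocyte integrins. Alcam, Ncam1 and Cadm1 bind copies of themselves and related molecules on neighbouring cells, the junctional molecules Jam2, Jam3 and F11r (also called Jam1) sit at cell contacts, and Bcam binds laminin. In bone marrow, Vcam1 on stromal cells is known as an anchor for stem and progenitor cells, which bind it through integrin alpha4 beta1.

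In these libraries Vcam1 was far higher in CD51+CD140a+ MSCs than in the 3 endosteal populations, and Jam2 was far lower there. Cadm1 was highest in Itga8- Alcam+ BLCs and was the one gene of the 10 that separated them from Itga8+ MSCs. Ncam1 was higher in both Alcam+ populations than in Sca-1+ MSCs. Icam1, Jam3 and F11r were called in none of the 6 comparisons by edgeR, DESeq2 or limma-trend, although Icam1 had an unadjusted edgeR p under 0.05 in the 3 that involve Sca-1+ MSCs.

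Total counts per library ranged from 17580677 to 31332475. Values below are CPM, the count of a gene relative to the library total after TMM scaling, given in the order of replicates 1, 2 and 3, and 3 counts correspond to 0.0819 to 0.180 CPM. A difference was called where the Benjamini-Hochberg FDR of edgeR's quasi-likelihood test over all 18648 genes was under 0.1 and the fold change over 2. Itga8+ replicate 2 stood apart from its group, with r = 0.906 and 0.861 on log2 CPM against the other Itga8+ libraries, which had r = 0.961 with each other. Its summed myeloid and lymphoid markers reached 12280 CPM, against 5938 and 2413 CPM in the others, and its summed erythroid markers reached 1610 CPM, against 194 and 161 CPM. Of the sorting markers, Ly6a (Sca-1) was at 611 to 658 CPM in Sca-1+ MSCs and at most 35.7 CPM elsewhere. Itga8 was at 35.2 to 199 CPM in Itga8+ MSCs and at most 4.17 CPM in Itga8- Alcam+ BLCs and Sca-1+ MSCs, but at 53.1 to 82.9 CPM in CD51+CD140a+ MSCs. Pdgfra (CD140a) was at 681 to 867 CPM in CD51+CD140a+ MSCs and at 734 to 1019 CPM in Sca-1+ MSCs.

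**Figure D1:**
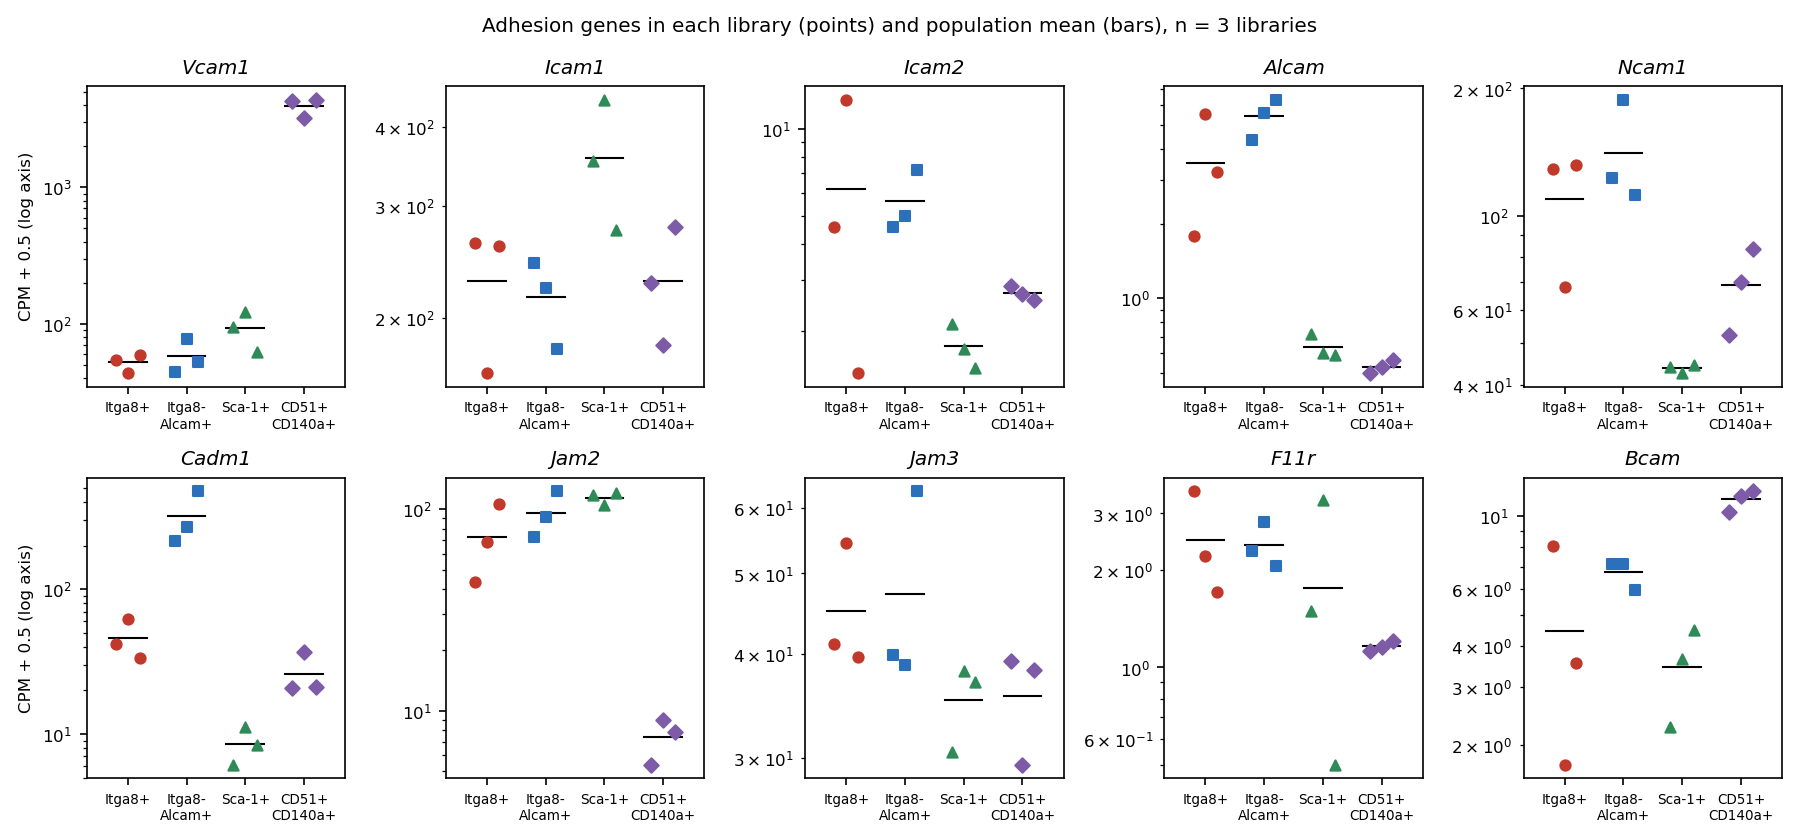
Level of each adhesion gene in each library, as CPM + 0.5 on log axes that differ between panels; points are the 3 libraries of a population and bars their mean. Vcam1 in CD51+CD140a+ MSCs (3198 to 4383 CPM), Jam2 in the same cells (4.89 to 8.45 CPM) and Cadm1 in Itga8- Alcam+ BLCs (216 to 477 CPM) lie clear of every other library.

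Alcam is a homophilic adhesion molecule that also binds CD6, and its protein set the gate of 3 of the populations. The Alcam gene lies on the minus strand of chromosome 16 (52248996 to 52454074, GRCm38), with 16 merged exons. Alcam RNA was at 1.29, 5.04 and 2.71 CPM in Itga8+ MSCs and at 3.83, 5.10 and 5.81 CPM in Itga8- Alcam+ BLCs. It was at 0.221, 0.102 and 0.0937 CPM in Sca-1+ MSCs, which stand for 4, 2 and 2 counts. The CD51+CD140a+ libraries, which were not gated on Alcam, held 0, 1 and 2 counts. The Alcam+ libraries did not overlap with any other library. Against Sca-1+ MSCs, which were gated as Alcam-, this is a check of the sort and not a finding. From pooled counts, Alcam was 22.1 times higher in Itga8+ than in Sca-1+ MSCs (95% counting interval 10.97 to 52.04) and 35.9 times higher in Itga8- Alcam+ BLCs than in Sca-1+ MSCs (18.0 to 84.1). Against CD51+CD140a+ MSCs the ratios were 102 (34.4 to 501) and 166 (56.4 to 812), each on 3 counts in CD51+CD140a+ MSCs. These intervals are binomial and cover counting error only. Between Itga8+ MSCs and Itga8- Alcam+ BLCs the libraries overlapped, and the log2 fold change of -0.71 had a 95% interval of -1.90 to 0.49.

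Sequence upstream of the RefSeq start was at hand for 4 of the 10 genes (Alcam, Icam1, Bcam and F11r), from RefSeq on GRCm38.p6. Alcam and Icam1 are shown because they mark the ends of the range: Alcam had the lowest mean level of the 10 per length in all 4 populations, although in both Alcam+ populations it was not apart from F11r beyond the spread, and Icam1 was among the highest in all 4. The 250 bases before the RefSeq start are printed 5′ to 3′ on the strand of the gene, with motif matches on either strand in capitals. For Alcam the window is chr16:52453082-52453331 on the minus strand and for Icam1 chr9:21015690-21015939 on the plus strand. The Alcam window lies inside the gene interval given above, since the outermost annotated start there is further upstream than the RefSeq start.
Alcam: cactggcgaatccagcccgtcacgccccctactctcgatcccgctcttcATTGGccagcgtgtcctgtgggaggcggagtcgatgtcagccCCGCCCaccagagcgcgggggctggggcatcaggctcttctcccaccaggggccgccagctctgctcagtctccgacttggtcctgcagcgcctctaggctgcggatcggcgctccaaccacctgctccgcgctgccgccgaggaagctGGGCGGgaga
Icam1: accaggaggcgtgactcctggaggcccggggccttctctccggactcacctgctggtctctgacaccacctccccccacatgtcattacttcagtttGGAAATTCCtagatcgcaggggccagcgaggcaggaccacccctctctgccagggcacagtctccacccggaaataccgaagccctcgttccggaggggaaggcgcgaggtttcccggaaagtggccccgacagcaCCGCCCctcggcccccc

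The capitals in the Alcam window are a CCAAT box (CCAAT or its complement, first base at position -201 from the start) and GC boxes (GGGCGG or its complement) at -159 and -10. Those in the Icam1 window are the NF-kappaB-type letters GGAAATTCC at -153 and a GC box at -17. Neither window held TATAAA or TGANTCA on either strand. Of 32851 RefSeq promoters of the same length, 33.8% held CCAAT, 32.7% GGGCGG, 12.4% TATAAA, 6.75% TGANTCA and 0.286% GGAAATTCC. A match is a run of letters only, and no factor was measured here.

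Vcam1, the ligand of integrin alpha4 beta1, set CD51+CD140a+ MSCs apart from the rest. The gene lies on the minus strand of chromosome 3 (116109949 to 116129688) with 10 merged exons. CD51+CD140a+ libraries held 4257, 3198 and 4383 CPM. Sca-1+ libraries followed with 93.8, 121 and 61.3 CPM, then Itga8- Alcam+ BLCs with 44.1, 77.5 and 52.3 CPM and Itga8+ MSCs with 53.8, 43.0 and 58.7 CPM. The lowest CD51+CD140a+ library was thus above the highest of the other 9 by a wide margin. The log2 fold change over CD51+CD140a+ MSCs was -6.25 ± 0.39 (SE) for Itga8+ MSCs, -6.09 ± 0.39 for Itga8- Alcam+ BLCs and -5.42 ± 0.38 for Sca-1+ MSCs, which correspond to 76.1-, 68.1- and 42.9-fold lower levels. Their FDRs by edgeR's quasi-likelihood test were 1.22e-06, 1.22e-06 and 2.52e-06. Among the 3 endosteal populations Vcam1 was called in no comparison. All 3 Sca-1+ libraries lay above all 3 Itga8+ libraries (log2 fold change of Itga8+ over Sca-1+ -0.83 ± 0.32, edgeR FDR 0.0957), but the fold stayed under 2, and without Sca-1+ replicate 3 it was past both thresholds (-1.05, edgeR FDR 0.0758).

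The gene with the pattern most like Vcam1 over the 12 libraries, on log2(CPM + 0.5), was Gm43109 (Pearson r = 0.999), whose exons overlap Vcam1 on the opposite strand. The kit does not keep strand, and reads of the pair cannot be told apart where they overlap, which is 0.688% of the Vcam1 exons. Gm43109 was given 6.89 to 9.82% as many counts as Vcam1 (median 7.96%), and the Vcam1 level is uncertain to that extent. Cxcl12, a chemokine that retains stem cells in marrow, came next (r = 0.993), at 34974 to 50648 CPM in CD51+CD140a+ MSCs and 137 to 501 CPM elsewhere. Serpina3c followed with r = 0.990. Markers of LepR+ stromal cells moved with Vcam1. All 10 of that list were called higher in CD51+CD140a+ than in Itga8+ MSCs, all 10 against Sca-1+ MSCs and 9 of 10 against Itga8- Alcam+ BLCs. Their sum was 53993 to 71704 CPM in CD51+CD140a+ MSCs, 793 to 888 CPM in Sca-1+ MSCs, 620 to 725 CPM in Itga8- Alcam+ BLCs and 568 to 749 CPM in Itga8+ MSCs, and none of the 10 was at 0 in all libraries of a population. Their part in the Vcam1 difference was not tested. In bulk RNA, more cells of a type and more RNA per cell cannot be told apart, and this holds for every gene below.

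Icam1, which binds the beta2 integrins of leukocytes, was the most even of the integrin ligands. It lies on the plus strand of chromosome 9 (21015985 to 21028817) with 7 merged exons. Itga8+ MSCs held 262, 163 and 260 CPM, Itga8- Alcam+ BLCs 244, 223 and 178 CPM, and CD51+CD140a+ MSCs 227, 181 and 278 CPM. Sca-1+ MSCs held 352, 441 and 275 CPM, above every library of both Alcam+ populations, but overlapping with CD51+CD140a+ MSCs. The log2 fold change over Sca-1+ MSCs was -0.64 ± 0.29 for Itga8+ MSCs (edgeR FDR 0.153) and -0.73 ± 0.29 for Itga8- Alcam+ BLCs (edgeR FDR 0.0984), and neither fold was over 2. Between Itga8+ and CD51+CD140a+ MSCs the 95% interval of the log2 fold change was -0.57 to 0.57, and the libraries overlapped. The exons of Gm47079 lie opposite 11.7% of those of Icam1 and were given 332 to 889 counts per library, 7.43 to 15.5% as many as Icam1 (median 8.95%), so that its level is uncertain to that extent. The genes most like Icam1 were Lrrc32 (r = 0.948), Stk35 (r = 0.939) and Spice1 (r = 0.913).

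Icam2, another ligand of the beta2 integrins and a gene of endothelial cells and leukocytes, was low everywhere. It lies on the minus strand of chromosome 11 (106377656 to 106388075) with 7 merged exons. Itga8+ MSCs held 4.06, 12.1 and 0.924 CPM, so that replicate 2 was the highest and replicate 3 the lowest of all 12 libraries. Itga8- Alcam+ BLCs held 4.08, 4.49 and 6.71 CPM, Sca-1+ MSCs 1.604, 1.22 and 0.984 CPM, and CD51+CD140a+ MSCs 2.35, 2.18 and 2.06 CPM. Icam2 was called higher than in Sca-1+ MSCs in Itga8+ MSCs (log2 fold change 2.16 ± 0.70, edgeR FDR 0.0565) and in Itga8- Alcam+ BLCs (2.00 ± 0.70, edgeR FDR 0.0600). The Itga8+ libraries overlapped with the Sca-1+ libraries, whereas the Itga8- Alcam+ libraries did not. Without Itga8+ replicate 2 the first value fell to 0.96 (edgeR FDR 0.287), and this call was also lost with limma-trend (1.48, adjusted p = 0.157), with that pair of populations alone (2.11, edgeR FDR 0.149) and with the replicate block (1.93, edgeR FDR 0.136). Leaving out any Sca-1+ library ended both calls, with log2 fold changes of 2.01 to 2.36 for the first and 1.85 to 2.20 for the second. The second was also lost without Itga8- replicate 3 (1.75, edgeR FDR 0.150). Over CD51+CD140a+ MSCs Icam2 was not called, but the value for Itga8- Alcam+ BLCs passed with that pair of populations alone (1.19, edgeR FDR 0.0451) and without Itga8+ replicate 2 (1.21, edgeR FDR 0.0721) or 3 (1.21, edgeR FDR 0.0572), and the value for Itga8+ MSCs passed without Itga8+ replicate 3 (1.86, edgeR FDR 0.0131) and with DESeq2 (1.43, adjusted p = 0.0939).

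Myeloid and lymphoid markers were higher, together with Icam2, in the Alcam+ populations than in Sca-1+ MSCs. Of 13 in the list, 12 were tested, and 10 were called higher in Itga8+ than in Sca-1+ MSCs and 9 in Itga8- Alcam+ BLCs than in Sca-1+ MSCs. Their sum was 2413 to 12280 CPM in Itga8+ MSCs, 4567 to 6800 CPM in Itga8- Alcam+ BLCs, 931 to 1825 CPM in Sca-1+ MSCs and 1058 to 1752 CPM in CD51+CD140a+ MSCs. Itga8+ replicate 3 had the least Icam2 of all libraries, but its sum of 2413 CPM was above every Sca-1+ and CD51+CD140a+ library. Every CD51+CD140a+ library had more Icam2 than every Sca-1+ library, while their marker sums overlapped. The lysozyme gene Lyz2 was at 2968 CPM in Itga8+ replicate 2, the T cell gene Cd3e was at 0 in all 12 libraries, and Ptprc (CD45) was at 3.54 to 31.6 CPM. The genes most like Icam2 over the 12 libraries were Atg4b (r = 0.948), Plac8 (r = 0.948) and Slpi (r = 0.939). The sum of 12 endothelial markers was highest in Sca-1+ MSCs (172 to 224 CPM, against 34.9 to 79.4 CPM elsewhere), where Icam2 was lowest, and 3 of them were called higher in each Alcam+ population than in CD51+CD140a+ MSCs, with 1 lower in Itga8- Alcam+ BLCs. Of 8 megakaryocyte and platelet markers, relative to Sca-1+ MSCs 4 were called higher for Itga8+ MSCs and 3 for Itga8- Alcam+ BLCs, and 0 lower. Their sum was 21.1 to 46.7 CPM for Itga8+ MSCs, 21.5 to 39.2 CPM for Itga8- Alcam+ BLCs, 22.2 to 28.3 CPM for Sca-1+ MSCs and 15.3 to 36.2 CPM for CD51+CD140a+ MSCs, so that the sums overlapped. The part of the leukocyte, endothelial and platelet markers in the Icam2 difference was not tested.

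**Figure D2:**
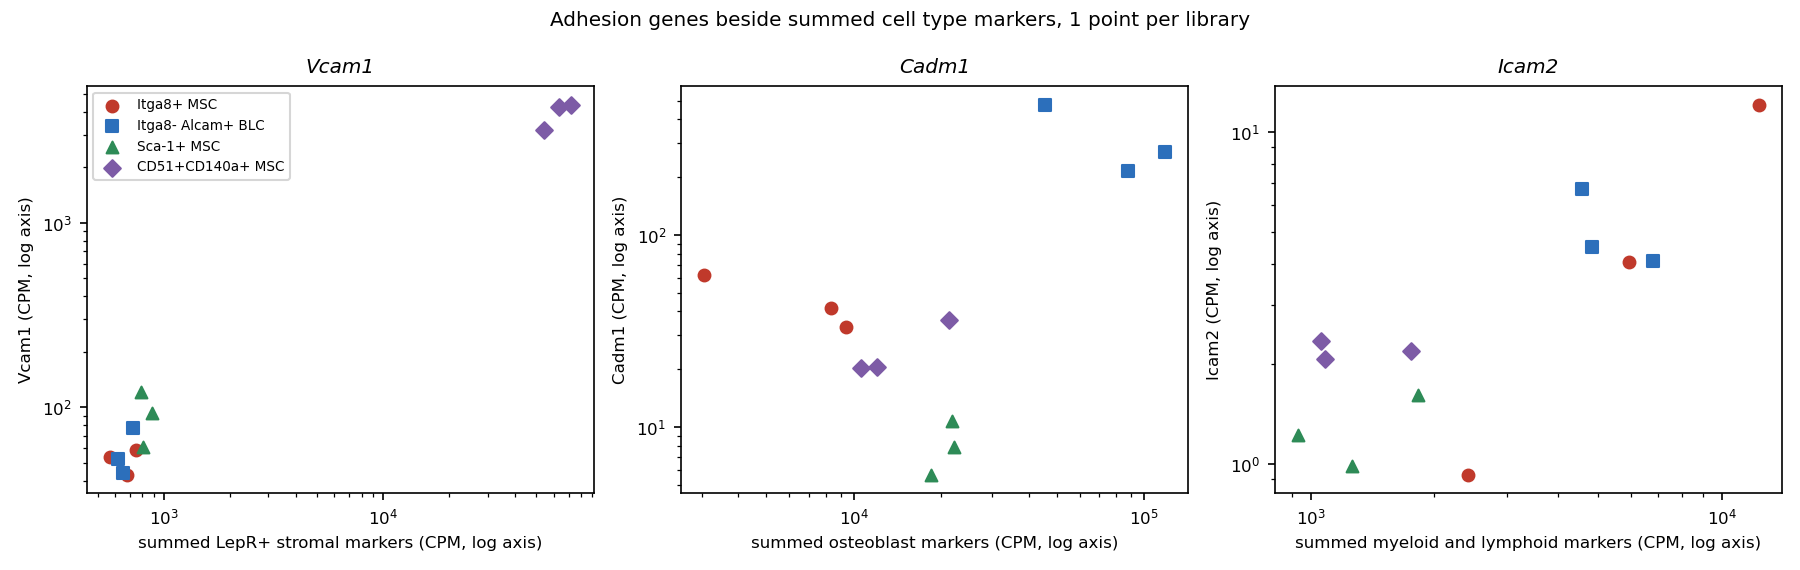
Vcam1, Cadm1 and Icam2 (vertical, CPM, log axes) beside the summed markers of LepR+ stromal cells, osteoblasts, and myeloid and lymphoid cells (horizontal, CPM, log axes), with 1 point per library. The CD51+CD140a+ libraries lie alone at the top of the Vcam1 panel, the Itga8- Alcam+ libraries at the top of the Cadm1 panel, and Itga8+ replicate 2 (12.1 CPM) at the top of the Icam2 panel.

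Cadm1, a homophilic molecule that also binds nectin-like partners, separated all 3 endosteal populations from each other. It lies on the plus strand of chromosome 9 (47530173 to 47857637) with 13 merged exons. Itga8- Alcam+ BLCs held 216, 269 and 477 CPM, Itga8+ MSCs 41.7, 61.7 and 33.2 CPM, CD51+CD140a+ MSCs 20.3, 36.3 and 20.5 CPM, and Sca-1+ MSCs 5.64, 10.7 and 7.87 CPM. The populations did not overlap, apart from Itga8+ and CD51+CD140a+ MSCs. Cadm1 was 7.04-fold lower in Itga8+ MSCs than in Itga8- Alcam+ BLCs (log2 fold change -2.82 ± 0.42, edgeR FDR 0.00321), and it was the one gene of the 10 called in this comparison, where 3.82% of all genes tested were called. It was 5.63-fold higher in Itga8+ than in Sca-1+ MSCs (2.49 ± 0.42, edgeR FDR 0.00216). Itga8- Alcam+ BLCs were 39.7-fold above Sca-1+ MSCs (5.31 ± 0.47) and 12.5-fold above CD51+CD140a+ MSCs (3.64 ± 0.43), and Sca-1+ MSCs were 3.18-fold below CD51+CD140a+ MSCs (-1.67 ± 0.41, edgeR FDR 0.0128). Between Itga8+ and CD51+CD140a+ MSCs the log2 fold change of 0.83 ± 0.39 was not called, but it passed without Itga8+ replicate 3 (1.002, edgeR FDR 0.0773) and without CD51+CD140a+ replicate 2 (1.16, edgeR FDR 0.0811).

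Osteoblast markers moved with Cadm1 between the Alcam+ populations. Of 11 in the list, 10 were called higher in Itga8- Alcam+ BLCs than in Itga8+ MSCs, and their sum was 45507 to 117816 CPM against 3040 to 9406 CPM. Dmp1, a gene of osteocytes and late osteoblasts, was at 1634 to 2264 CPM in Itga8- Alcam+ BLCs and at most 0.462 CPM in Itga8+ MSCs. Within Itga8- Alcam+ BLCs the order differed: replicate 3 had the most Cadm1 and the lowest marker sum, but also the most Bglap (osteocalcin), at 6980 CPM against 1753 and 1175 CPM. Sca-1+ MSCs had marker sums of 18479 to 22162 CPM, above those of Itga8+ MSCs, with less Cadm1. Schwann cell markers were also higher with Cadm1: 7 of 8 were called higher in Itga8- Alcam+ BLCs than in CD51+CD140a+ MSCs and 2 of 8 than in Itga8+ MSCs, with sums of 121 to 193 CPM in Itga8- Alcam+ BLCs, 60.5 to 128 CPM in Itga8+ MSCs and 16.9 to 24.6 CPM in the rest. Relative to Sca-1+ MSCs, 6 of the 11 osteoblast markers were called higher and 1 lower for Itga8+ MSCs, and 8 higher for Itga8- Alcam+ BLCs. Relative to CD51+CD140a+ MSCs, 7 were higher and 1 lower for Itga8- Alcam+ BLCs, and 1 higher and 7 lower for Sca-1+ MSCs. All 8 cartilage markers were higher in each Alcam+ population than in Sca-1+ MSCs, and in Itga8- Alcam+ BLCs than in CD51+CD140a+ MSCs. Between the Alcam+ populations 0 of these 8 were called, and 3 were higher in Sca-1+ than in CD51+CD140a+ MSCs. The part of these lists in the Cadm1 difference was not tested. The genes most like Cadm1 over the 12 libraries were Chn1os1 (r = 0.976), Fstl4 (r = 0.970) and Pex11a (r = 0.967).

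Ncam1, a homophilic molecule of nerve and muscle that is also made by stromal and osteoblast-lineage cells, set both Alcam+ populations above Sca-1+ MSCs. It lies on the minus strand of chromosome 9 (49502136 to 49798925) with 26 merged exons. Itga8+ MSCs held 128, 67.4 and 131 CPM and Itga8- Alcam+ BLCs 122, 188 and 111 CPM. Sca-1+ MSCs held 43.6, 42.1 and 44.0 CPM, below every other library, and CD51+CD140a+ MSCs held 51.8, 69.4 and 82.9 CPM. Ncam1 was 2.52-fold higher in Itga8+ than in Sca-1+ MSCs (log2 fold change 1.34 ± 0.33, edgeR FDR 0.0175) and 3.25-fold higher in Itga8- Alcam+ BLCs than in Sca-1+ MSCs (1.70 ± 0.33, edgeR FDR 0.00401). Itga8- Alcam+ BLCs were also called above CD51+CD140a+ MSCs (1.05 ± 0.32, edgeR FDR 0.0294), but this call was lost when Itga8- replicate 2 (0.78) or CD51+CD140a+ replicate 1 (0.88) was left out, and with library totals in place of TMM scaling (0.68). Gm11149, which lies opposite 4.81% of the Ncam1 exons, was the gene most like it (r = 0.969), followed by Epha2 (r = 0.966) and Mroh8 (r = 0.961). It was given 13.4 to 27.0% as many counts as Ncam1 (median 20.3%), and because strand was not kept the Ncam1 level is uncertain to that extent. All 8 cartilage markers of the list were called higher, as was Ncam1, in each Alcam+ population than in Sca-1+ MSCs. Their sums were 23812 to 121870 CPM for Itga8+ MSCs, 15545 to 78192 CPM for Itga8- Alcam+ BLCs, 1403 to 1776 CPM for Sca-1+ MSCs and 598 to 1389 CPM for CD51+CD140a+ MSCs. The CD51+CD140a+ libraries ran the other way, with more Ncam1 than every Sca-1+ library but lower cartilage sums. Of the Schwann cell markers, relative to Sca-1+ MSCs, 6 of 8 were called higher for Itga8- Alcam+ BLCs and 2 of 8 for Itga8+ MSCs, with the sums given above for Cadm1. Of 8 skeletal muscle and satellite cell markers 5 were tested, and 3 of them were called higher in each Alcam+ population than in Sca-1+ MSCs. The sum of the 8 was 14.8 to 40.1 CPM for Itga8+ MSCs, 7.67 to 33.9 CPM for Itga8- Alcam+ BLCs, 1.69 to 3.04 CPM for Sca-1+ MSCs and 20.2 to 35.4 CPM for CD51+CD140a+ MSCs, and Pax7, which defines satellite cells, was at 0 in 11 of 12 libraries. Of 9 pericyte and smooth muscle markers, relative to Sca-1+ MSCs 4 were called higher and 1 lower for Itga8+ MSCs and 3 higher for Itga8- Alcam+ BLCs, and the osteoblast markers of that comparison are given above for Cadm1. The part of the 5 lists in the Ncam1 difference was not tested.

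The junctional molecules parted ways. Jam2 lies on the plus strand of chromosome 16 (84774123 to 84825928) with 11 merged exons and set all 3 endosteal populations above CD51+CD140a+ MSCs. Sca-1+ MSCs held 117, 104 and 120 CPM, Itga8- Alcam+ BLCs 71.9, 91.0 and 122 CPM, and Itga8+ MSCs 42.8, 67.9 and 105 CPM. CD51+CD140a+ MSCs held 4.89, 8.45 and 7.31 CPM, so that their highest library was below the lowest of the other 9. Relative to CD51+CD140a+ MSCs, Jam2 was 10.5-fold higher in Itga8+ MSCs (log2 fold change 3.39 ± 0.39), 13.8-fold higher in Itga8- Alcam+ BLCs (3.79 ± 0.39) and 16.5-fold higher in Sca-1+ MSCs (4.04 ± 0.40). Their edgeR FDRs were 6.23e-05, 3.19e-05 and 2.53e-05. Among the endosteal populations the libraries overlapped and no difference was called. The overlap of Itga8+ with Sca-1+ MSCs came from Itga8+ replicate 3 (105 CPM), and without it the log2 fold change of Itga8+ over Sca-1+ MSCs passed (-1.09, edgeR FDR 0.0436, against -0.66 ± 0.35 with all libraries). The genes most like Jam2 were Atp6v0e2 (r = 0.983), Tmbim1 (r = 0.976) and Mmp3 (r = 0.972). Markers of adventitial fibroblasts were likewise lowest in CD51+CD140a+ MSCs, with sums of 9.34 to 19.5 CPM, against 132 to 158 CPM for Itga8- Alcam+ BLCs, 173 to 234 CPM for Itga8+ MSCs and 3392 to 3951 CPM for Sca-1+ MSCs, and 8, 7 and 8 of the 8 were called higher in Itga8+ MSCs, Itga8- Alcam+ BLCs and Sca-1+ MSCs. Tendon fibroblast markers were also lowest there, with sums of 5981 to 7633 CPM, against 21066 to 35878 CPM for Itga8+ MSCs, 10441 to 14661 CPM for Itga8- Alcam+ BLCs and 16664 to 19944 CPM for Sca-1+ MSCs, and of the 9, 8, 7 and 7 were called higher and 1, 2 and 1 lower in these 3 populations. Of the 8 cartilage markers, whose sums are given above for Ncam1, 7, 8 and 3 were called higher in the same order. Of 12 endothelial markers, 3, 3 and 4 were called higher and 0, 1 and 0 lower, while the sums of both Alcam+ populations (35.9 to 79.4 CPM) overlapped with those of CD51+CD140a+ MSCs (34.9 to 66.2 CPM). The part of these 4 lists in the Jam2 difference was not tested.

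Jam3, a partner that Jam2 binds on the neighbouring cell, was nearly level. It lies on the minus strand of chromosome 9 (27097384 to 27155421) with 11 merged exons. Itga8+ MSCs held 40.6, 53.9 and 39.2 CPM, Itga8- Alcam+ BLCs 39.4, 38.4 and 62.3 CPM, Sca-1+ MSCs 30.0, 37.7 and 36.5 CPM, and CD51+CD140a+ MSCs 38.8, 29.0 and 37.7 CPM. The largest of its 6 log2 fold changes was 0.43 ± 0.28 (Itga8- Alcam+ BLCs over Sca-1+ MSCs, 95% interval -0.13 to 0.98), and none was called. The Jam3 level is uncertain, because 36.2% of its exons lie opposite Gm48796, which was given up to 61.5% as many counts as Jam3 itself (median 55.0%). Only 70.7% of the 50-base words of Jam3 occur in no other gene, against 86.9% for Icam1. Gm48796 was also the gene most like Jam3 (r = 0.960), followed by Ola1 (r = 0.947) and Bnip1 (r = 0.936).

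F11r, the junctional molecule of epithelia and endothelia, was low in every library. The gene lies on the plus strand of chromosome 1 (171437535 to 171464603) with 9 merged exons. Itga8+ MSCs held 3.02, 1.71 and 1.21 CPM, Itga8- Alcam+ BLCs 1.79, 2.32 and 1.56 CPM, Sca-1+ MSCs 0.996, 2.80 and 0 CPM, and CD51+CD140a+ MSCs 0.628, 0.659 and 0.709 CPM. All 6 libraries of the Alcam+ populations lay above all 3 CD51+CD140a+ libraries, with log2 fold changes of 1.57 ± 0.98 and 1.50 ± 0.98 that were not called (edgeR FDR 0.240 and 0.265). Sca-1+ MSCs spread from 0 to 2.80 CPM, and without Sca-1+ replicate 3, the library at 0, both of those values passed (edgeR FDR 0.0571 and 0.0656). The second also passed with that pair of populations alone (1.49, edgeR FDR 0.0633).

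Bcam, the laminin receptor among the 10, was highest in CD51+CD140a+ MSCs. It lies on the minus strand of chromosome 7 (19756131 to 19771016) with 17 merged exons. CD51+CD140a+ MSCs held 9.78, 11.004 and 11.4 CPM, above every other library. Itga8- Alcam+ BLCs held 6.62, 6.62 and 5.45 CPM, Itga8+ MSCs 7.57, 1.25 and 3.06 CPM, and Sca-1+ MSCs 1.77, 3.15 and 3.98 CPM. Bcam was 2.70-fold lower in Itga8+ MSCs (log2 fold change -1.43 ± 0.54, edgeR FDR 0.0645) and 3.60-fold lower in Sca-1+ MSCs (-1.85 ± 0.55, edgeR FDR 0.0364) than in CD51+CD140a+ MSCs. The first call was lost without Itga8+ replicate 2 (-0.98, edgeR FDR 0.127), without Itga8+ replicate 3 (-1.26), without any CD51+CD140a+ library (-1.50 to -1.39) and with the pair of populations alone (-1.44, edgeR FDR 0.141). The second was lost without Sca-1+ replicate 1 (-1.58) or 2 (-1.89). Itga8- Alcam+ BLCs did not differ from CD51+CD140a+ MSCs past the thresholds (-0.78 ± 0.53). Itga8- Alcam+ BLCs over Sca-1+ MSCs passed with that pair alone (1.04, edgeR FDR 0.0812) and without Itga8+ replicate 1 (1.07, edgeR FDR 0.0942) or 2 (1.03, edgeR FDR 0.0679), but not with all 12 libraries. In humans, the BCAM protein is also a blood group antigen of red cells. Of 9 erythroid markers 2 were called lower in Itga8+ MSCs, 1 in Itga8- Alcam+ BLCs and 2 in Sca-1+ MSCs against CD51+CD140a+ MSCs. Their sum was 494 to 559 CPM in CD51+CD140a+ MSCs, 161 to 1610 CPM in Itga8+ MSCs, 217 to 443 CPM in Itga8- Alcam+ BLCs and 192 to 349 CPM in Sca-1+ MSCs, and the library with the highest sum, Itga8+ replicate 2, had the least Bcam. Against the same CD51+CD140a+ MSCs, all 10 LepR+ stromal markers were called lower in Itga8+ and in Sca-1+ MSCs. They were lower for 9 of 10 in Itga8- Alcam+ BLCs, where Bcam was not called. Of 11 osteoblast markers, 4 were lower and 1 higher in Itga8+ MSCs, and 7 lower and 1 higher in Sca-1+ MSCs. In Itga8- Alcam+ BLCs 7 of the 11 were higher and 1 lower. The part of these lists in the Bcam difference was not tested. Prpf38b, Rgl3 and Foxc1 were the genes most like Bcam (r = 0.937, 0.927 and 0.927).

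**Figure D3:**
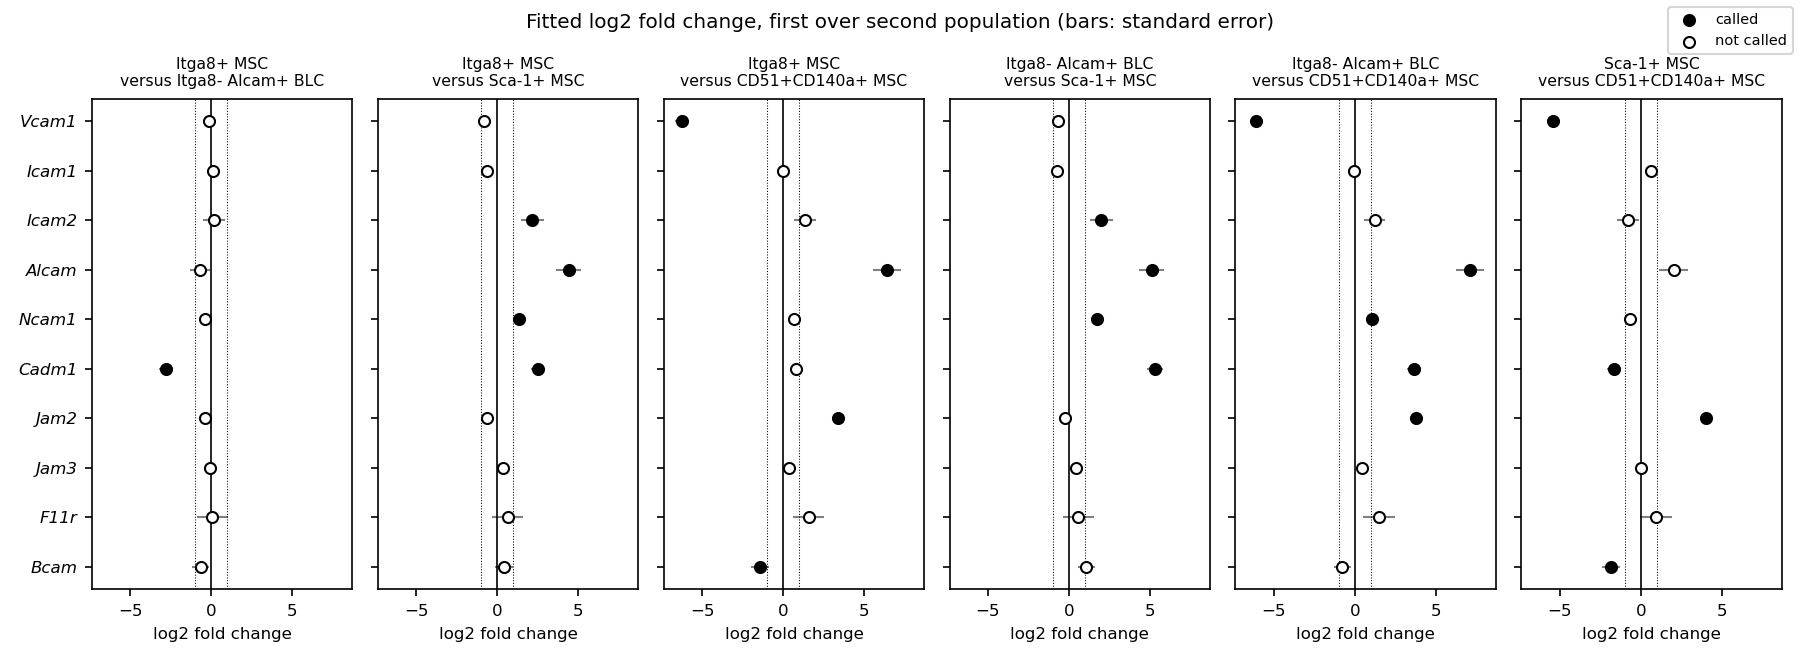
Fitted log2 fold change of each adhesion gene in each of the 6 comparisons, first over second population, with bars of 1 standard error; filled points were called (FDR under 0.1 and fold over 2) and dotted lines mark a fold of 2. Cadm1 (-2.82) is the one filled point between Itga8+ MSCs and Itga8- Alcam+ BLCs, and Vcam1 (-6.25 to -5.42) and Jam2 (3.39 to 4.04) lie on opposite sides in all 3 comparisons with CD51+CD140a+ MSCs.

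By comparison, 1 of the 10 genes was called between Itga8+ MSCs and Itga8- Alcam+ BLCs, lower in the former, as were 2.16% of all genes, with 1.66% higher. Between Itga8+ and Sca-1+ MSCs 4 were called, all higher in Itga8+ MSCs (Alcam, Icam2, Ncam1 and Cadm1), where 21.7% of all genes were called, 12.9% higher and 8.89% lower in Itga8+ MSCs. The same 4 were called between Itga8- Alcam+ BLCs and Sca-1+ MSCs, again all higher in the Alcam+ cells, beside 26.4% of all genes called, 14.5% higher and 11.9% lower. Both comparisons share the Sca-1+ libraries. Against CD51+CD140a+ MSCs, 2 of the 10 were higher (Alcam and Jam2) and 2 lower (Vcam1 and Bcam) in Itga8+ MSCs, beside 35.6% of all genes called, 21.2% higher and 14.3% lower. In Itga8- Alcam+ BLCs 4 were higher (Alcam, Ncam1, Cadm1 and Jam2) and 1 lower (Vcam1), beside 35.3% of all genes, 20.4% higher and 14.9% lower. In Sca-1+ MSCs 1 was higher (Jam2) and 3 were lower (Vcam1, Bcam and Cadm1), beside 20.5% of all genes, 11.2% higher and 9.3% lower. Alcam counts among these calls although its protein set the gate of all populations but CD51+CD140a+ MSCs. The same shares of all genes stand beside the counts called in each marker list above.

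The median log2 fold change of the 10 lay at -0.26 in Itga8+ MSCs over Itga8- Alcam+ BLCs, beside 0.08 over all genes tested. It lay at 0.53 for Itga8+ over Sca-1+ MSCs (all genes 0.16) and at 0.82 for Itga8- Alcam+ BLCs over Sca-1+ MSCs (all genes 0.12). Over CD51+CD140a+ MSCs it lay at 0.75 in Itga8+ MSCs (all genes 0.18), 1.13 in Itga8- Alcam+ BLCs (all genes 0.09) and -0.34 in Sca-1+ MSCs (all genes -0.0025). Groups of 3 libraries did not overlap for 1 of the 10 genes between Itga8+ MSCs and Itga8- Alcam+ BLCs, where 14.2% of all genes did not overlap. They did not overlap for 6 of 10 between Itga8+ and Sca-1+ MSCs (37.6% of all genes), 6 between Itga8+ and CD51+CD140a+ MSCs (44.4%), 7 between Itga8- Alcam+ BLCs and Sca-1+ MSCs (45.7%), 7 between Sca-1+ and CD51+CD140a+ MSCs (45.9%) and 8 between Itga8- Alcam+ BLCs and CD51+CD140a+ MSCs (49.8%). With 3 libraries in each group, exact two-sided permutation cannot give a p below 0.1, so the calls rest on the fit across all genes.

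Levels of different genes were compared as TPM, the transcript share of each gene after division by its exon length. Icam1 ranked first of the 10 in Itga8+ MSCs (182 ± 77.6 TPM, SD, n = 3), Itga8- Alcam+ BLCs (149 ± 49.7 TPM) and Sca-1+ MSCs (304 ± 73.4 TPM). In CD51+CD140a+ MSCs Vcam1 ranked first with 1796 ± 357 TPM, 84.9% of the summed TPM of the 10, and Icam1 second with 211 ± 44.4 TPM. Cadm1 ranked second in Itga8- Alcam+ BLCs (85.9 ± 17.4 TPM) and sixth in Itga8+ MSCs (14.0 ± 1.85 TPM). Jam2 ranked second in Sca-1+ MSCs (69.9 ± 5.12 TPM) and eighth in CD51+CD140a+ MSCs (4.53 ± 0.958 TPM). Alcam ranked last by mean in all 4 populations, at 1.29 ± 0.543 TPM for Itga8+ MSCs and 2.00 ± 0.306 TPM for Itga8- Alcam+ BLCs. F11r, ninth in both, was not apart from it beyond the spread, at 2.55 ± 1.57 and 2.15 ± 0.771 TPM. In Sca-1+ MSCs F11r was at 1.78 ± 1.98 TPM and Alcam at 0.0730 ± 0.0390 TPM, but F11r was at 0 in replicate 3, below Alcam. Jam3, Ncam1 and Jam2 in Itga8+ MSCs (45.5 ± 3.50, 44.3 ± 21.7 and 40.1 ± 21.8 TPM) also lay within their spread of each other.

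**Figure D4:**
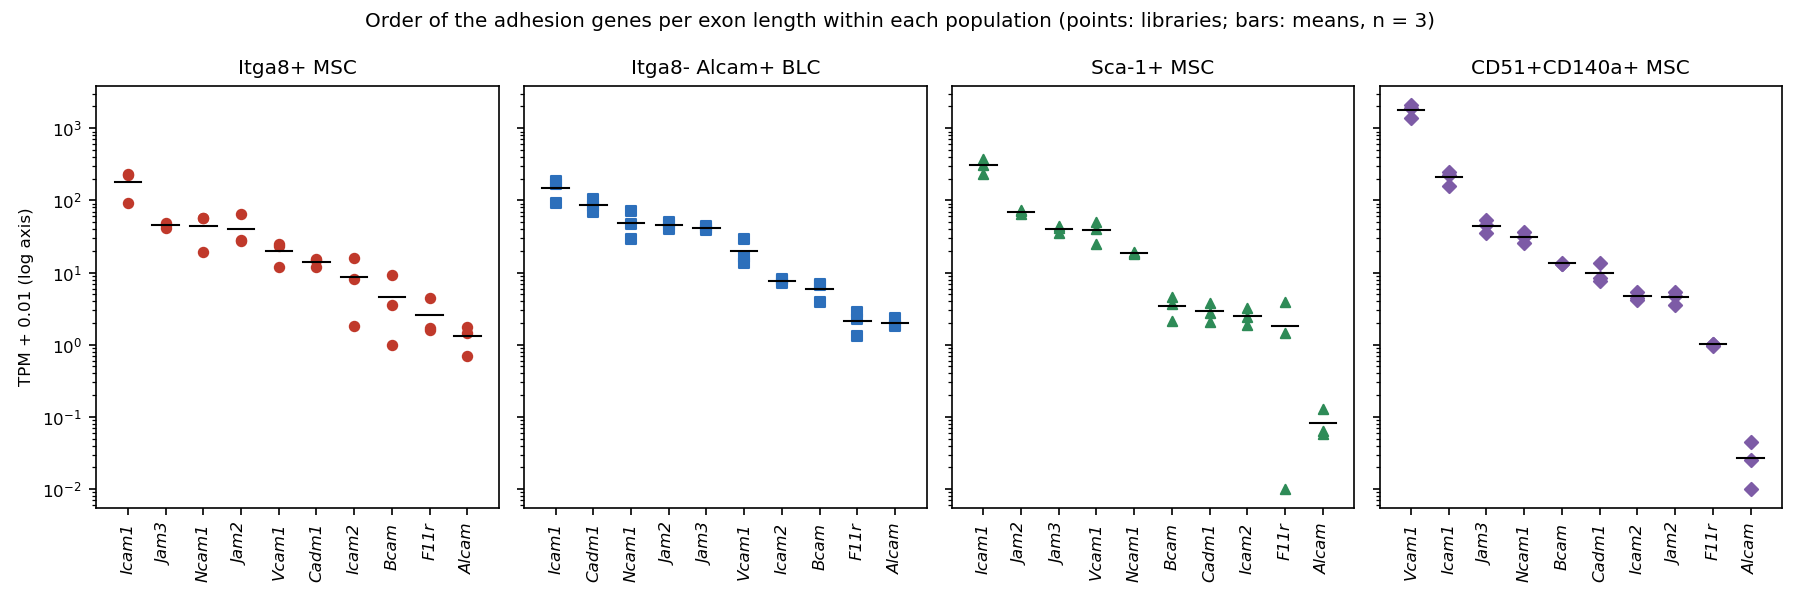
The 10 adhesion genes in order of their mean level per exon length within each population, as TPM + 0.01 on a log axis; points are libraries and bars means. Icam1 leads in the 3 endosteal populations, Vcam1 (1796 TPM) in CD51+CD140a+ MSCs, and Alcam has the lowest mean in each.

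Across the populations, CD51+CD140a+ MSCs came first for Vcam1 and Bcam, Itga8- Alcam+ BLCs for Alcam, Ncam1, Cadm1 and Jam3, Sca-1+ MSCs for Icam1 and Jam2, and Itga8+ MSCs for Icam2 and F11r. Between neighbours in these orders, a difference was called for Vcam1 (CD51+CD140a+ over Sca-1+ MSCs), Jam2 (Itga8+ over CD51+CD140a+ MSCs), Alcam (Itga8+ over Sca-1+ MSCs) and Cadm1 (Itga8- Alcam+ BLCs over Itga8+ MSCs, and CD51+CD140a+ over Sca-1+ MSCs). In the fit of all 12 libraries no other neighbours were told apart by the test. Of these, Icam2 in Itga8- Alcam+ BLCs over CD51+CD140a+ MSCs and Cadm1 in Itga8+ over CD51+CD140a+ MSCs passed under the alternatives given above.

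Other adhesion genes of the immunoglobulin type put the 10 in context: 81 were in the files and 68 were tested. The levels of these and the other related genes are means of 3 libraries, and the range is added where leaving out 1 library would move a mean by over 1.5 times. Between Itga8+ MSCs and Itga8- Alcam+ BLCs 2 were higher and 6 lower in Itga8+ MSCs, beside 1.66% and 2.16% of all genes. Ntm, a neurotrimin of the IgLON family anchored by a lipid, was at 16.3 CPM in Itga8+ MSCs against 1.46 CPM in Itga8- Alcam+ BLCs (log2 fold change 3.48 ± 0.72, edgeR FDR 0.0228). Emb (embigin), a partner of lactate transporters, was at 454 CPM (280 to 776) against 176 CPM (1.37 ± 0.37). Higher in Itga8- Alcam+ BLCs were Vstm4 (110 CPM against 11.9 CPM, -3.21 ± 0.32), Cd200 (351 CPM against 96.3 CPM, -1.86 ± 0.30), whose product restrains myeloid cells, and Igsf3 (54.0 CPM against 25.3 CPM, -1.09 ± 0.26).

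Against Sca-1+ MSCs 12 of the 68 were higher and 16 lower in Itga8+ MSCs, and 17 were higher and 16 lower in Itga8- Alcam+ BLCs. Of all genes, 12.9% were higher and 8.89% lower in Itga8+ MSCs, and 14.5% higher and 11.9% lower in Itga8- Alcam+ BLCs. Mpzl2, a small homophilic molecule, was at 61.4 CPM in Itga8+ MSCs, 64.2 CPM in Itga8- Alcam+ BLCs and 0.477 CPM in Sca-1+ MSCs. Kirrel3 was at 31.3 CPM (16.7 to 60.3) in Itga8+ MSCs and 0.0794 CPM (0 to 0.187) in Sca-1+ MSCs, a mean below the level of 3 counts. In Itga8- Alcam+ BLCs Cxadr, a tight-junction molecule known as a virus receptor, was at 23.6 CPM (11.1 to 47.9) against 0.676 CPM (0.0937 to 1.27) in Sca-1+ MSCs (log2 fold change 5.12 ± 0.91), and Mcam (CD146) was at 10.1 CPM against 0.482 CPM (0 to 1.17). Sca-1+ MSCs had more of the matrix hemicentins Hmcn1 (27.4 CPM, against 1.19 CPM for Itga8+ MSCs and 0.245 CPM for Itga8- Alcam+ BLCs) and Hmcn2 (48.6 CPM, against 0.549 CPM, 0 to 1.39, and 0.532 CPM, 0.180 to 1.05). Cdon, a co-receptor for Hedgehog proteins, was at 96.9 CPM in Sca-1+ MSCs, 4.47 CPM (2.39 to 7.97) in Itga8- Alcam+ BLCs and 3.99 CPM in Itga8+ MSCs.

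Against CD51+CD140a+ MSCs 25 of the 68 were higher and 11 lower in Itga8+ MSCs, 25 were higher and 13 lower in Itga8- Alcam+ BLCs, and 20 were higher and 12 lower in Sca-1+ MSCs. Of all genes, 21.2%, 20.4% and 11.2% were higher and 14.3%, 14.9% and 9.3% lower, in the same order. CD51+CD140a+ MSCs had the most Igsf3 (308 CPM), Clmp (460 CPM), a relative of Cxadr, Negr1 (70.5 CPM, an IgLON), Cntn1 (12.3 CPM), Nrcam (29.4 CPM) and Nectin2 (67.1 CPM), which ties to the actin linker afadin. The log2 fold change of Igsf3 over CD51+CD140a+ MSCs was -3.61 ± 0.28 for Itga8+ MSCs and -4.00 ± 0.29 for Sca-1+ MSCs, and that of Negr1 was -5.35 ± 0.46 for Itga8+ MSCs. Hmcn2 and Nfasc (neurofascin) were at 0 in all 3 CD51+CD140a+ libraries and at 21.3 to 69.1 CPM and 30.8 to 42.9 CPM in Sca-1+ MSCs, where Lsamp was at 10.8 CPM. The median log2 fold change of the 68 was -0.05 in Itga8+ MSCs over Itga8- Alcam+ BLCs (all genes 0.08), -0.02 in Itga8+ over Sca-1+ MSCs (all genes 0.16) and 0.13 in Itga8- Alcam+ BLCs over Sca-1+ MSCs (all genes 0.12). Over CD51+CD140a+ MSCs it was 0.48 in Itga8+ MSCs (all genes 0.18), 0.90 in Itga8- Alcam+ BLCs (all genes 0.09) and 0.04 in Sca-1+ MSCs (all genes -0.0025). With genes under 3 counts in a population given their bound instead of the fitted value, these medians were -0.04, -0.02, 0.055, 0.41, 0.76 and 0.04 in the same order.

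**Figure D5:**
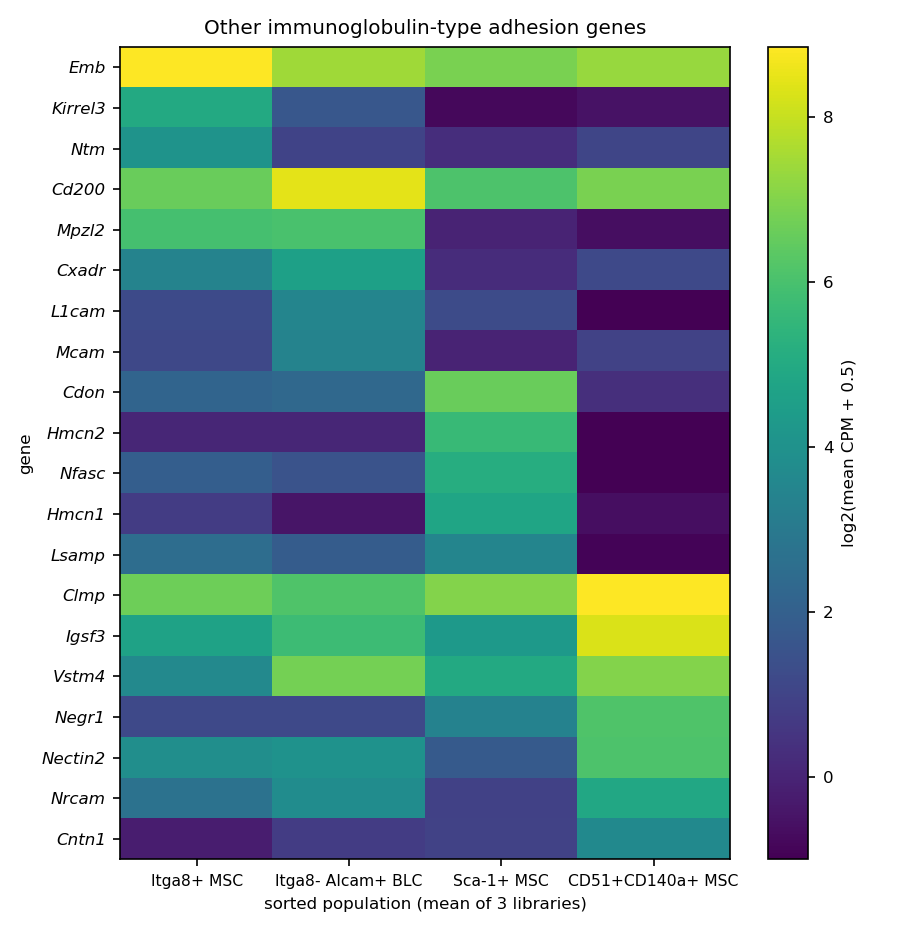
Mean level of 20 other adhesion genes of the immunoglobulin type in the 4 populations, as log2(mean CPM + 0.5) in colour; genes are grouped by the population where they were highest. Mpzl2 is bright in both Alcam+ populations (61.4 and 64.2 CPM), Hmcn2 (48.6 CPM) in Sca-1+ MSCs, and Igsf3 (308 CPM) and Clmp (460 CPM) in CD51+CD140a+ MSCs.

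Of 19 receptors and ligands of the 10 genes, 0 were called between Itga8+ MSCs and Itga8- Alcam+ BLCs by edgeR's quasi-likelihood test, where 3 had an unadjusted p under 0.05, and DESeq2 called 2 and limma-trend 0. Muc1, a ligand of Icam1, was at 24.2 CPM in Itga8+ MSCs, 16.3 CPM in Itga8- Alcam+ BLCs, 2.80 CPM in Sca-1+ MSCs and 1.13 CPM in CD51+CD140a+ MSCs, and was called higher in each Alcam+ population than in each of the others. Itga9, whose alpha9 beta1 integrin binds Vcam1, was at 137 CPM in CD51+CD140a+ MSCs, together with the highest Vcam1, and at 73.8 CPM in Sca-1+ MSCs, 11.7 CPM (1.77 to 24.2) in Itga8+ MSCs and 1.71 CPM (0.249 to 4.401) in Itga8- Alcam+ BLCs, whose libraries overlapped. Its log2 fold change over CD51+CD140a+ MSCs was -3.55 ± 0.96 for Itga8+ MSCs and -6.30 ± 1.11 for Itga8- Alcam+ BLCs. Itgb2, the chain that the leukocyte receptors of Icam1 and Icam2 share, was at 42.1 CPM in Itga8+ MSCs, 53.1 CPM in Itga8- Alcam+ BLCs, 17.3 CPM (8.85 to 32.7) in Sca-1+ MSCs and 8.48 CPM in CD51+CD140a+ MSCs. Ager (RAGE), which is on the list although its binding to Alcam is not established here, was highest in CD51+CD140a+ MSCs (14.6 CPM). Itgb3 was highest in Sca-1+ MSCs (59.2 CPM). L1cam belongs to this list and to the one before it. Over all 19, 3 were higher and 2 lower in Itga8+ than in Sca-1+ MSCs, 4 higher and 2 lower in Itga8+ than in CD51+CD140a+ MSCs, 5 and 2 in Itga8- Alcam+ BLCs over Sca-1+ MSCs, 5 and 3 over CD51+CD140a+ MSCs, and 4 and 1 in Sca-1+ over CD51+CD140a+ MSCs. In the same order, 21.7%, 35.6%, 26.4%, 35.3% and 20.5% of all genes were called either way. Between Itga8+ MSCs and Itga8- Alcam+ BLCs the share was 3.82%.

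Of 19 cytoplasmic partners, 1 was called between Itga8+ MSCs and Itga8- Alcam+ BLCs: Fyn, a kinase that acts downstream of Ncam1, at 64.1 CPM against 244 CPM (log2 fold change -1.93 ± 0.39, edgeR FDR 0.0213). Fyn was at 171 CPM in Sca-1+ MSCs and 15.2 CPM in CD51+CD140a+ MSCs. Ezr (ezrin), which links adhesion molecules to actin, was at 295 CPM in Itga8+ MSCs and 36.4 CPM in CD51+CD140a+ MSCs (3.02 ± 0.33), while its relative Msn (moesin) was highest in Sca-1+ MSCs (1294 CPM). Epb41l3, which binds Cadm1, ran the other way from Cadm1 in Sca-1+ MSCs, where it was at 53.8 CPM against 7.40 CPM (3.43 to 13.3) in Itga8+ MSCs. In the other comparisons 1 partner was higher and 4 lower in Itga8+ than in Sca-1+ MSCs, 3 higher and 2 lower in Itga8+ than in CD51+CD140a+ MSCs, 3 higher and 1 lower in Itga8- Alcam+ BLCs than in CD51+CD140a+ MSCs, and 5 higher and 1 lower in Sca-1+ than in CD51+CD140a+ MSCs. The 4 called between Itga8- Alcam+ BLCs and Sca-1+ MSCs were all lower in the former. In the order of these comparisons, 3.82%, 21.7%, 35.6%, 35.3%, 20.5% and 26.4% of all genes were called either way.

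Enzymes that modify or shed these molecules made a list of 7. St8sia2, which adds polysialic acid to Ncam1, was at 24.1 CPM in Itga8+ MSCs, where its libraries ranged from 6.59 to 53.1 CPM, and at 3.75 CPM (1.26 to 7.37) in Itga8- Alcam+ BLCs (log2 fold change 2.67 ± 0.75, edgeR FDR 0.0970). It was at 37.0 CPM in CD51+CD140a+ MSCs and 10.5 CPM in Sca-1+ MSCs. The sheddases Adam9, Adam10 and Adam17 were all called lower in both Alcam+ populations than in Sca-1+ MSCs. Adam9 was at 57.2 CPM (19.4 to 96.5) in Itga8+ MSCs, 35.6 CPM in Itga8- Alcam+ BLCs, 256 CPM in Sca-1+ MSCs and 233 CPM in CD51+CD140a+ MSCs, and Adam10 was at 37.5 (18.7 to 64.3), 74.1 (36.6 to 125), 186 and 142 CPM in the same order. In all, 1 of the 7 was called between Itga8+ MSCs and Itga8- Alcam+ BLCs, 3 were lower in each Alcam+ population than in Sca-1+ MSCs, and relative to CD51+CD140a+ MSCs 3 were lower in Itga8- Alcam+ BLCs and 2 in Itga8+ MSCs. Between the Alcam+ populations 3.82% of all genes were called. Lower than in Sca-1+ MSCs were 8.89% of all genes for Itga8+ MSCs and 11.9% for Itga8- Alcam+ BLCs. Lower than in CD51+CD140a+ MSCs were 14.3% and 14.9%. Between Sca-1+ and CD51+CD140a+ MSCs, where edgeR called 20.5% of all genes, it called 0 of the 7, with an unadjusted p under 0.05 for 1. DESeq2 called 1 of them there and limma-trend 0.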

How the data were processed

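The 12 libraries were made by the authors from 2000 cells each with the SMART-Seq v4 kit, which amplifies cDNA and does not keep strand, and Nextera XT, and were sequenced on an Illumina system. The study's methods name TopHat with Bowtie2 and the mm10 genome. The submitters' processing notes name FastQC 0.11.7, Trimmomatic 0.38, HISAT2 2.1.0, SAMtools 1.9 and featureCounts 1.6.3, so the aligner is uncertain. The authors deposited counts that were not normalized, with Ensembl identifiers and 1 file for each library. Amplified reads without molecular identifiers are not independent molecules, so counting intervals cover counting error only.

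Symbols, positions and exon lengths were taken from GENCODE M21 (GRCm38), which lacked 259 of 49585 identifiers. All 12 libraries were fitted in 1 edgeR 4.0.16 quasi-likelihood model with TMM scaling, without a replicate term, after genes that stayed under 0.5 CPM in every library had been dropped, which left 18648. The 6 pairs of populations were compared, and calls needed a Benjamini-Hochberg FDR under 0.1 and a fold over 2, the thresholds of the study. The SE of a log2 fold change is its absolute value over the square root of the F statistic of edgeR's test. The 95% interval is nominal, the value ± 1.96 SE, and can be narrower than the test implies. For Vcam1 in Itga8- Alcam+ BLCs over Sca-1+ MSCs it was -1.29 to -0.048, with an unadjusted edgeR p of 0.0561. Pooled-count ratios carry exact 95% binomial intervals. Libraries were compared singly by an exact two-sided permutation test, whose smallest p is 0.1. TPM was computed from merged exon lengths. Alternatives were other scalings and filters, DESeq2 1.42.0, limma-trend (limma 3.58.1), pairs fitted alone, a stricter FDR, a replicate term and each library left out. R was version 4.3.3 and Python 3.11.15 (pandas 2.3.3, numpy 2.4.6, matplotlib 3.10.9, scipy 1.17.1).

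The 10 genes and the lists of related genes and cell type markers were chosen with earlier results of these data known, so no list is independent support. All 10 genes were named. From the lists of other adhesion genes, receptors, partners and enzymes, up to 3 called genes each way per comparison with at least 10 CPM in the higher population were named. The 3 genes most like each member were those of highest Pearson r on log2(CPM + 0.5), among the 12287 genes whose mean reached 5 CPM in some population, for members that reached it, as a description without a test. Some genes of the lists are not reported here by name.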

Additional observations from a re-analysis of the deposited data

How the results depend on the processing

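Of 60 fold changes, 22 were called, and 17 of them were called in all of up to 21 alternatives. The 5 others were Icam2 against Sca-1+ MSCs from both Alcam+ populations, Bcam against CD51+CD140a+ MSCs in Itga8+ and Sca-1+ MSCs, and Ncam1 in Itga8- Alcam+ BLCs against CD51+CD140a+ MSCs. Over all alternatives, 25 results for called values were no longer past the thresholds and none changed sign, while values not called changed sign in 38 and passed in 15. The cause was not tested. Alcam between Sca-1+ and CD51+CD140a+ MSCs could not be fitted with those populations alone, since it fell below the filter. In a library, 3 counts stand for up to 0.180 CPM, so Alcam outside the Alcam+ gates was at the limit of detection.

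With library totals in place of TMM scaling, the log2 fold change of Itga8+ MSCs over Itga8- Alcam+ BLCs was 0.13 for Vcam1 and 0.20 for Jam3, and the median of all genes rose from 0.08 to 0.34. Icam1 in Itga8+ over CD51+CD140a+ MSCs was then -0.083, and it was -0.011 with limma-trend, -0.026 without the filter, -0.0069 with the replicate block and -0.014 with the pair alone. With limma-trend, Icam2 (-0.45) and F11r (-0.011) turned in Itga8+ MSCs over Itga8- Alcam+ BLCs, and F11r (-0.22) in Sca-1+ over CD51+CD140a+ MSCs. Jam3 in Sca-1+ over CD51+CD140a+ MSCs was 0.0046 with RLE size factors and 0.0047 with DESeq2. Library totals also moved the split of called genes: 61.3% were higher in Itga8+ MSCs than in Itga8- Alcam+ BLCs (43.5% with TMM), 42.6% in Itga8- Alcam+ BLCs than in Sca-1+ MSCs (54.9%) and 41.8% in Itga8- Alcam+ BLCs than in CD51+CD140a+ MSCs (57.9%). Between Itga8+ MSCs and Itga8- Alcam+ BLCs, 712 genes were called, against 1203 with DESeq2, 276 with the pair alone, 464 at an FDR under 0.05 and 433 to 886 with 1 library left out (the lowest without Itga8- replicate 3, the highest without Itga8+ replicate 2). Between Itga8+ and Sca-1+ MSCs, 4055 were called, against 2642, 2386 and 2492 without Sca-1+ replicates 1, 2 and 3 and 5878 without Itga8+ replicate 3.

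With each library left out in turn, log2 fold changes that changed sign ranged, for Itga8+ MSCs over Itga8- Alcam+ BLCs, from -0.31 to 0.12 (Vcam1), -0.025 to 0.30 (Icam1), -0.998 to 0.65 (Icam2), -0.20 to 0.19 (Jam3) and -0.37 to 0.33 (F11r). They ranged from -0.47 to 0.82 for Bcam in Itga8+ over Sca-1+ MSCs and from -0.0068 to 1.94 for F11r in Itga8- Alcam+ BLCs over Sca-1+ MSCs. Over CD51+CD140a+ MSCs they ranged from -0.14 to 0.22 (Icam1, Itga8+ MSCs), -0.23 to 0.078 (Icam1, Itga8- Alcam+ BLCs), -0.14 to 0.079 (Jam3, Sca-1+ MSCs) and -0.44 to 1.51 (F11r, Sca-1+ MSCs). None of these was called in the fit of all 12 libraries.

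Replicate numbers did not pair the samples: deviations of same-numbered libraries correlated over 0.1 in 5 of 18 pairs (-0.70 to 0.30). Across numbers, Itga8+ replicate 2 correlated with Itga8- replicate 3 (r = 0.71) and Itga8+ replicate 3 with Itga8- replicate 2 (r = 0.74). Whether these libraries shared a preparation was not tested. Neither the main fit nor the block by replicate number takes such a link into account. With the replicate block, Icam2 in Itga8+ over Sca-1+ MSCs was 1.93 (edgeR FDR 0.136), leaving 3 of 10 called there, Icam2 in Itga8+ MSCs over Itga8- Alcam+ BLCs turned to -0.14, and 433 genes were called between the latter.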
